A study of Mus musculus with 8 samples.

Results

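Chemokine receptors steer T cells between tissues, and the 9 receptor genes described here, Ccr2, Ccr4, Ccr6, Ccr8, Ccr9, Ccr10, Cxcr3, Cxcr4 and Cxcr5, were chosen by name as those that guide regulatory T cells (Treg) towards inflamed sites, follicles, skin, gut and bone marrow. All 9 were found among the 19826 genes of the table, and all 9 passed the filter on low values that left 13847 genes for testing. The libraries came from sorted CD4+ YFP+ Treg of the spleen and peripheral lymph nodes of untreated C57BL/6 mice. The 4 libraries labelled Pdpk1 KO came from mice of the genotype Foxp3 YFP-Cre/+ Pdpk1 FL/FL and the 4 WT libraries from Foxp3 YFP-Cre/+ Pdpk1 +/+ mice, so both groups carried the Cre allele. Cre was expressed from Foxp3, on 1 of the 2 X chromosomes, which leaves Cre-negative Treg in the same animals, and the sort on YFP took the Cre-expressing cells. Neither the age of the mice nor the number of mice behind each library was given in the labels, and the p-values cover only the scatter among these libraries.

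As background, chemokine receptors are membrane receptors with several transmembrane helices that signal through inhibitory G proteins. A cell that carries a given receptor moves along the gradient of its chemokine, and naive and effector Treg carry different receptors. Effector Treg gain receptors for tissues, while resting Treg rely on receptors for lymphoid organs. Pdpk1 encodes PDK1, the kinase that switches on AKT once PI3K has acted, and chemokine receptors are among the activators of PI3K.

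Of the 9 receptors, 6 were lower in the Pdpk1 KO libraries, 0 were higher and 3 did not pass the threshold of an adjusted p of 0.05 (limma across all genes tested, Benjamini-Hochberg adjustment). Among all genes tested 5.06% were called lower and 4.41% higher, together 9.47%. The count of higher receptors was also 0 at an unadjusted p under 0.05, and by edgeR and DESeq2 on the recovered reads. The 6 that fell were Ccr2, Cxcr3, Cxcr5, Ccr6, Ccr8 and Ccr4, by 14.2-fold, 6.51-fold, 4.50-fold, 3.76-fold, 3.64-fold and 1.84-fold. The median log2 change of the 9 was -1.91, against -0.0065 over all genes tested. Values are gene read counts divided by a size factor (normalized counts), and every change is on the log2(normalized count + 1) scale, the Pdpk1 KO libraries minus WT. In bulk libraries, fewer cells that carry a receptor and less of its RNA per cell cannot be told apart.

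The reads recovered from the values, summed over the genes in the table, came to between 17448095 and 26299577 per library. Pdpk1 itself stood at 1983 ± 365 normalized counts in the Pdpk1 KO libraries and 2223 ± 320 in WT (SD, n = 4 each, adjusted p = 0.491). That value sums all exons and does not check the labels. Foxp3, the defining factor of Treg, stood at 5355 ± 743 normalized counts in Pdpk1 KO and 5086 ± 740 in WT (SD, n = 4 each, adjusted p = 0.768), and the summed markers of Treg ranged from 58253 to 67113 in the Pdpk1 KO libraries and from 55198 to 60130 in WT. Of the 6 Treg markers, Il2ra rose (log2 change 0.63, adjusted p = 0.00114) and Ikzf2 fell (-1.13, adjusted p = 4.45e-06). Markers of macrophages were present too. All 12 listed were in the table and their sum lay between 1184 and 3179 normalized counts in the Pdpk1 KO libraries, against 148 to 1013 in WT (exact two-sided permutation p = 0.0286, the smallest that 70 assignments allow, adjusted p = 0.0714 over 10 marker lists), and 6 of the 10 tested were higher. Vsig4 was at 0 in 6 libraries, Fcgr1 in 3, and Mertk and Cd14 in 2 each, while the C1q genes and Csf1r had reads in every library. With the mean level of these markers in the fit, the same 6 receptors were past the threshold, at log2 changes from -3.57 to -0.95. The sum of CD4 T cell markers lay between 43285 and 54920 in the Pdpk1 KO libraries and between 55026 and 77405 in WT, and that of dendritic cell markers, nearly all Pacsin1, between 2036 and 2290 in the Pdpk1 KO libraries and 2375 and 3140 in WT (adjusted exact permutation p = 0.0714 for each). Sums of plasma cell markers and of CD8 T and NK cell markers overlapped between the groups (adjusted exact permutation p = 0.571 for each).

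Promoter sequences of 4 of the 6 receptors that fell are shown first, and no link between promoter sequence and the changes was tested. The window of Ccr4, which also fell, is not printed, and none was at hand for Cxcr5. RefSeq promoters of GRCm38.p6, from 250 bases before to 50 after a gene start, were at hand for 7 of the 9 genes, 8 windows in all. Each was searched on both strands for the FOXO letters GTAAACA, the T-box letters GTGTGA, the AP-1 letters TGANTCA and the GATA letters AGATAA, and no match overlapped another in these windows. The GATA letters lay in 3 of the 8 windows, those of Ccr2, Ccr8 and 1 of the 2 starts of Ccr6, and in 11.2% of all 32851 promoters. The T-box letters lay in the Cxcr3 window alone, and in 14.5% of all promoters. The AP-1 letters lay in the Ccr4 window alone and in 7.81% of all, and the FOXO letters in 0 of the 8 and in 3.65% of all. Such matches are letters in a window and not binding sites. In the 4 windows printed here, each 5′ to 3′ on the strand of its gene, capitals mark the match.
Ccr2 promoter, chr9:124101933-124102232, plus strand, AGATAA read on the minus strand: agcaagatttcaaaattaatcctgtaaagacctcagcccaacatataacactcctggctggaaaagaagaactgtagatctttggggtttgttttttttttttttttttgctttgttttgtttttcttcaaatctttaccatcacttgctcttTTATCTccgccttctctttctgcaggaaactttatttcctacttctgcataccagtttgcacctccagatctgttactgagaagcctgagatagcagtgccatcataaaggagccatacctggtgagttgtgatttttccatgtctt
Ccr6 promoter, second start, chr17:8242276-8242575, plus strand, AGATAA on the plus strand: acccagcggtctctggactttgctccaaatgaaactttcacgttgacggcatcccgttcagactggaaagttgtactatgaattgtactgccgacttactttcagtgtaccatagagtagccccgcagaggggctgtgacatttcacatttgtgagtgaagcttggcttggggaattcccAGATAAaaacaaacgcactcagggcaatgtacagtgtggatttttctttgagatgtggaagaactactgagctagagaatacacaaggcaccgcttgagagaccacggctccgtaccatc
Ccr8 promoter, chr9:120091883-120092182, plus strand, AGATAA read on the minus strand: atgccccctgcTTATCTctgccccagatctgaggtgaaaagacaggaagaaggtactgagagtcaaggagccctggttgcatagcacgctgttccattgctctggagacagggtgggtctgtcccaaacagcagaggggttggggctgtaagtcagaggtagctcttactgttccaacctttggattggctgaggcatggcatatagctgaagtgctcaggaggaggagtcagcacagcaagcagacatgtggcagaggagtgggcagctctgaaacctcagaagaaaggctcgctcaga
Cxcr3 promoter, chrX:101734098-101734397, minus strand, GTGTGA read on the opposite strand to the gene: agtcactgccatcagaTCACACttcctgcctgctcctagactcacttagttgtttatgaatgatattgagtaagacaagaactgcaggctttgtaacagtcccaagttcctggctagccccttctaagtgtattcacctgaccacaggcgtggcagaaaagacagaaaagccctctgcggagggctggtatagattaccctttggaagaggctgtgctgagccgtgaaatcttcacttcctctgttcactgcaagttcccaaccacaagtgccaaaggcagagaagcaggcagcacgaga

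The receptors for inflamed tissue had the largest falls of the 9. Ccr2 encodes the receptor for CCL2 and related chemokines that draw cells to inflammation (ENSMUSG00000049103, GRCm38 chromosome 9, 124101950 to 124113557, plus strand). It had 41.0, 48.2, 68.5 and 55.5 normalized counts in Pdpk1 KO replicates 1 to 4 and 1155.5, 557, 709 and 721 in WT replicates 1 to 4. The groups lay far apart, with WT replicate 1 the highest library, and the change was -3.83 ± 0.24 (SE, 95% interval -4.35 to -3.31, adjusted p = 3.46e-07). Ordered from the largest fall, Ccr2 ranked 25 of the 13847 genes tested. Monocytes also express Ccr2, and the sum of 6 monocyte markers lay between 302 and 385 normalized counts in the Pdpk1 KO libraries and between 293 and 386 in WT (exact two-sided permutation p = 0.771, adjusted p = 0.857 over 10 lists). The largest of them, Ms4a6c, averaged 249 in Pdpk1 KO and 226 in WT, and Ly6c2 averaged 64.9 and 64.5. F13a1 averaged 3.40 in Pdpk1 KO and 25.03 in WT (limma adjusted p = 0.0362). Below the filter for testing, Fn1 averaged 12.8 in Pdpk1 KO and 2.07 in WT, Itgam 10.4 and 15.1, and Chil3 0 and 3.45. The part of monocytes in the Ccr2 values was not tested. Cxcr3, the receptor for the interferon-induced chemokines CXCL9 and CXCL10, sits on chromosome X (ENSMUSG00000050232, 101731535 to 101734269, minus strand). Its normalized counts were 101, 219, 76.3 and 188 in Pdpk1 KO replicates 1 to 4, against 999, 765, 846 and 913 in WT replicates 1 to 4. The groups did not overlap, although the Pdpk1 KO libraries differed among themselves by up to 2.87-fold and WT by 1.31-fold. The change of Cxcr3 was -2.70 ± 0.27 (SE, 95% interval -3.28 to -2.13, adjusted p = 1.43e-05). The interval for Ccr2 lay wholly below that for Cxcr3, and the difference between these changes was not tested.

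Cxcr5, the CXCL13 receptor that takes follicular regulatory and follicular helper T cells into B cell follicles (ENSMUSG00000047880, chromosome 9, 44511787 to 44561877, minus strand), had 317, 259.7, 221 and 253 normalized counts in Pdpk1 KO replicates 1 to 4. In WT replicates 1 to 4 it had 1464, 883, 1086 and 1367. The Pdpk1 KO libraries were close to each other and all below WT, with a change of -2.17 ± 0.17 (SE, 95% interval -2.53 to -1.81, adjusted p = 1.51e-06). B cells also express Cxcr5. Of their 3 tested markers, Cd79b averaged 165 normalized counts in the Pdpk1 KO libraries and 367 in WT (log2 change -1.17, limma adjusted p = 0.00407). The other tested markers went the other way without passing the threshold. Cd79a averaged 83.2 in Pdpk1 KO and 48.2 in WT (log2 change 0.73, limma adjusted p = 0.258), and Bank1 111 and 94.2 (0.37, limma adjusted p = 0.591). Below the filter for testing, Ms4a1 averaged 2.35 in the Pdpk1 KO libraries and 0.782 in WT and was at 0 in 6 of the 8 libraries. Pax5, Blk and Cr2, also below the filter, averaged 5.46, 0 and 3.45 in Pdpk1 KO and 8.95, 2.79 and 5.15 in WT. The summed B cell markers, of which 7 of 10 were in the table, ranged from 273 to 445 in the Pdpk1 KO libraries and 405 to 615 in WT (exact two-sided permutation p = 0.0857, adjusted p = 0.171 over 10 lists). With the mean level of these markers in the fit Cxcr5 stood at -2.09 (adjusted p = 3.54e-05). Its annotated exons share 110 bases with those of Bcl9l on the opposite strand, which had 3526 ± 210 normalized counts in the Pdpk1 KO libraries and 3401 ± 271 in WT (SD, n = 4 each, adjusted p = 0.789).

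Of the gut and mucosal receptors, Ccr6 fell and Ccr9 did not pass the test. Ccr6 binds CCL20 and marks Treg and helper cells of the IL-17 type (ENSMUSG00000040899, chromosome 17, 8236043 to 8257141, plus strand). It had 93.1, 66.8, 110.0 and 120.3 normalized counts in Pdpk1 KO replicates 1 to 4 and 433, 359, 269 and 409 in WT replicates 1 to 4. The groups did not overlap, and the change was -1.91 ± 0.23 (SE, 95% interval -2.41 to -1.41, adjusted p = 9.12e-05). Ccr9, the CCL25 receptor that leads T cells to the small intestine (ENSMUSG00000029530, chromosome 9, 123678439 to 123784330, plus strand), had 310.0, 393, 397 and 277 normalized counts in Pdpk1 KO replicates 1 to 4. The WT values were 262, 361, 487 and 687 in replicates 1 to 4. Here the groups overlapped, WT spread over 2.63-fold and the Pdpk1 KO libraries over 1.43-fold, and the change was -0.31 ± 0.24 (SE, 95% interval -0.83 to 0.21, adjusted p = 0.505). Of the 50-base stretches of the Ccr9 transcripts, 20.1% also occur in transcripts of other genes, among them the overlapping AC165425.1 and Gm17200, which averaged 2.44 and 0.931 normalized counts in Pdpk1 KO and 2.99 and 8.01 in WT. Plasmacytoid dendritic cells and thymocytes carry Ccr9 as well. Siglech, a marker of plasmacytoid dendritic cells, averaged 4.70 normalized counts in the Pdpk1 KO libraries and 2.62 in WT, and was at 0 in 2 libraries. Of the other dendritic cell markers in the table, Pacsin1, Zbtb46 and Cox6a2 averaged 2165, 19.0 and 2.49 in Pdpk1 KO, below 2750, 34.1 and 2.68 in WT. Itgax and Flt3 averaged 10.8 and 2.33 in Pdpk1 KO, above 2.67 and 0.542 in WT. Of 4 listed markers of immature thymocytes, Rag1, Rag2 and Ptcra were not in the table and Dntt was. Dntt, also of recent emigrants, averaged 75.2 in Pdpk1 KO and 28.6 in WT (log2 change 1.60, limma adjusted p = 0.0446). The part of such cells in the Ccr9 values was not tested.

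Among the receptors linked to skin and to Treg within tissues, Ccr8 and Ccr4 fell. Ccr8, the CCL1 receptor found on effector Treg of tissues and tumours (ENSMUSG00000042262, chromosome 9, 120092114 to 120094906, plus strand), had 83.8, 123, 77.5 and 98.1 normalized counts in Pdpk1 KO replicates 1 to 4. It had 409, 294, 345 and 343 in WT replicates 1 to 4. Every WT library stood above every Pdpk1 KO library, and the change was -1.87 ± 0.21 (SE, 95% interval -2.32 to -1.41, adjusted p = 4.35e-05). Ccr4, the receptor for CCL17 and CCL22 (ENSMUSG00000047898, chromosome 9, 114490316 to 114504916, minus strand), had 723, 815, 579 and 494 normalized counts in Pdpk1 KO replicates 1 to 4 and 1509, 1315, 947 and 1021 in WT replicates 1 to 4. The highest Pdpk1 KO library was close to the lowest WT library without reaching it. The change of Ccr4 was the smallest among the 6 that fell, -0.88 ± 0.17 (SE, 95% interval -1.24 to -0.51, adjusted p = 0.00432). Ccr10, the CCL27 and CCL28 receptor of skin-homing T cells and plasma cells (ENSMUSG00000044052, chromosome 11, 101172997 to 101175443, minus strand), had few reads, 92 over all 8 libraries. Its normalized counts were 0, 13.1, 0 and 8.53 in Pdpk1 KO replicates 1 to 4 and 31.6, 17.7, 2.76 and 19.3 in WT replicates 1 to 4, where a count of 0 allows up to 3 reads. The groups overlapped and the fitted change of -2.11 had a 95% interval from -4.47 to 0.25 (adjusted p = 0.281), so a difference was not detectable against the scatter among these replicates.

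Cxcr4, the CXCL12 receptor that holds cells in bone marrow and lymphoid tissue (ENSMUSG00000045382, chromosome 1, 128588199 to 128592293, minus strand), varied more between replicates than between groups. It had 2694, 4017, 2703 and 1681 normalized counts in Pdpk1 KO replicates 1 to 4 and 1287, 4453, 2844 and 1253 in WT replicates 1 to 4. WT replicate 2 was the highest library of all and WT replicate 4 the lowest, 3.55-fold apart. The change was 0.32 ± 0.34 (SE, 95% interval -0.40 to 1.04, adjusted p = 0.639), and it was -0.66 with macrophage markers in the fit (adjusted p = 0.231). Within each group the library with the most Cxcr4, replicate 2 in both, also had the highest sum of macrophage markers, 3179 in Pdpk1 KO and 1013 in WT. The part of those cells in the Cxcr4 values was not tested.

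**Figure D1:**
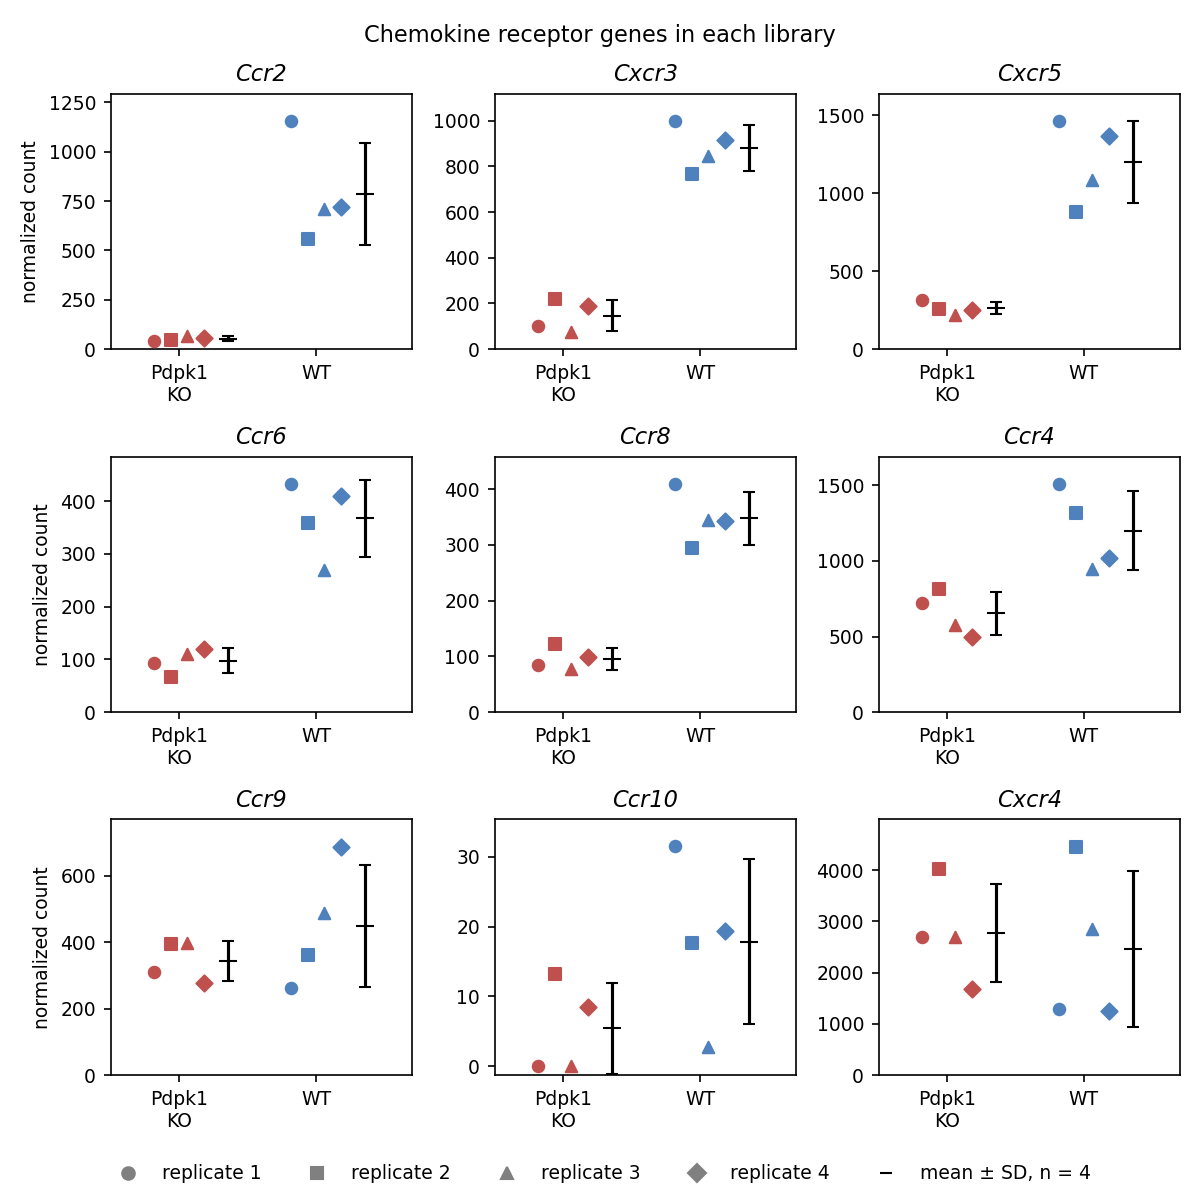
Normalized counts (y axis, linear) of each receptor gene in the 4 Pdpk1 KO libraries (red) and the 4 WT libraries (blue), with marker shapes for replicates 1 to 4 and black bars for the mean ± SD. The groups lie apart in the panels of Ccr2, Cxcr3, Cxcr5, Ccr6, Ccr8 and Ccr4 and overlap in those of Ccr9, Ccr10 and Cxcr4.

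The 6 receptors that fell were also the 6 whose groups did not overlap, and 0 of the 9 had every Pdpk1 KO library above every WT library. Of all genes tested, 8.24% had every Pdpk1 KO library below WT and 7.06% above, together 15.3%. Among the WT libraries, replicate 1 was the highest for 7 of the 9 receptors, the exceptions being Ccr9, for which it was the lowest, and Cxcr4. WT replicate 1 also had the fewest recovered reads, 17448095, and the lowest macrophage sum, 148 normalized counts. Without it the same 6 receptors were past the threshold, at changes from -3.63 to -0.76. Among the Pdpk1 KO libraries, replicate 2 was the highest for 5 of the 9.

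**Figure D2:**
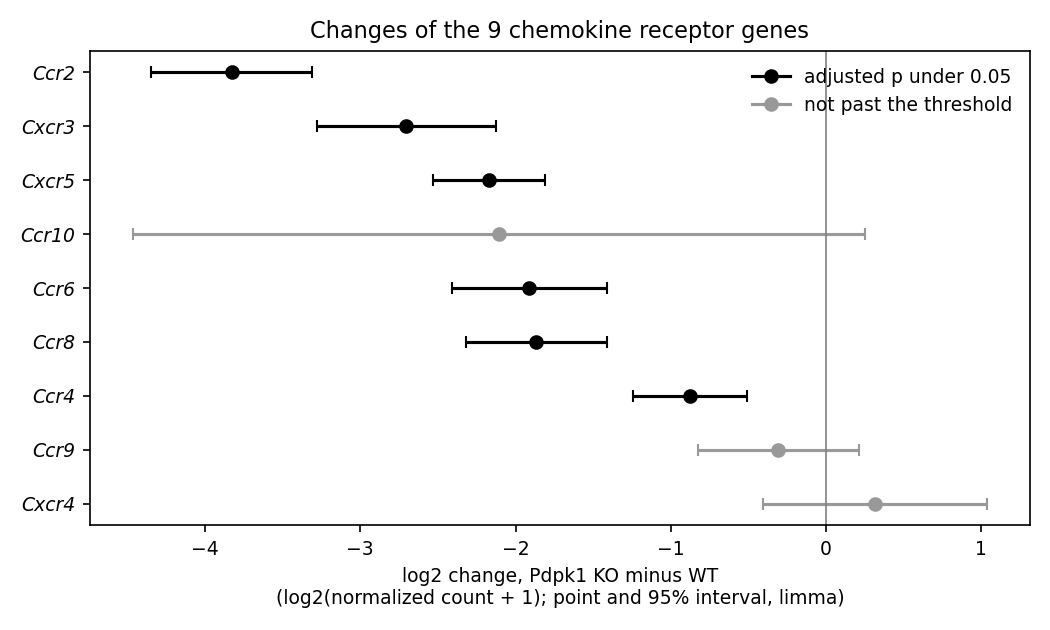
Log2 change of each receptor (x axis, Pdpk1 KO minus WT, on the log2(normalized count + 1) scale) with its 95% interval from limma; black points have an adjusted p under 0.05. The changes run from -3.83 for Ccr2 to 0.32 for Cxcr4, and the widest interval is that of Ccr10.

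The order of the receptors by level also differed between the groups. Levels of different genes were compared as normalized counts per kilobase of annotated exon. Cxcr4 led in both groups, with 1534 ± 529.7 per kilobase in the Pdpk1 KO libraries and 1360.2 ± 842 in WT (SD, n = 4 each). In the Pdpk1 KO libraries, Ccr4 came next at 211 ± 46.5, apart from Cxcr3, Ccr8 and Cxcr5 at 84.5 ± 39.4, 81.3 ± 17.1 and 78.9 ± 12.03, whose ranges overlapped. In WT, Cxcr3, Ccr4, Cxcr5 and Ccr8 stood at 509 ± 57.4, 387 ± 84.5, 360.2 ± 79.7 and 296 ± 40.2 per kilobase, and each overlapped its neighbour in that order. Ccr6 followed at 42.1 ± 10.1 in the Pdpk1 KO libraries, overlapping Ccr9, and at 158 ± 31.3 in WT, overlapping Ccr2. Ccr9 stood at 33.6 ± 5.87 and Ccr2 below it at 7.88 ± 1.74 in the Pdpk1 KO libraries, their ranges apart, whereas in WT Ccr2 was above Ccr9, at 116 ± 38.1 and 43.8 ± 17.9. Ccr10 had the lowest mean in both groups, 3.14 ± 3.79 in Pdpk1 KO, where its range overlapped that of Ccr2, and 10.3 ± 6.84 in WT, where it lay apart from its neighbour Ccr9. A gene with much annotated exon, as Ccr9 with 10260 bases and Ccr2 with 6760, has a lower value per kilobase where its transcripts in these cells are shorter.

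**Figure D3:**
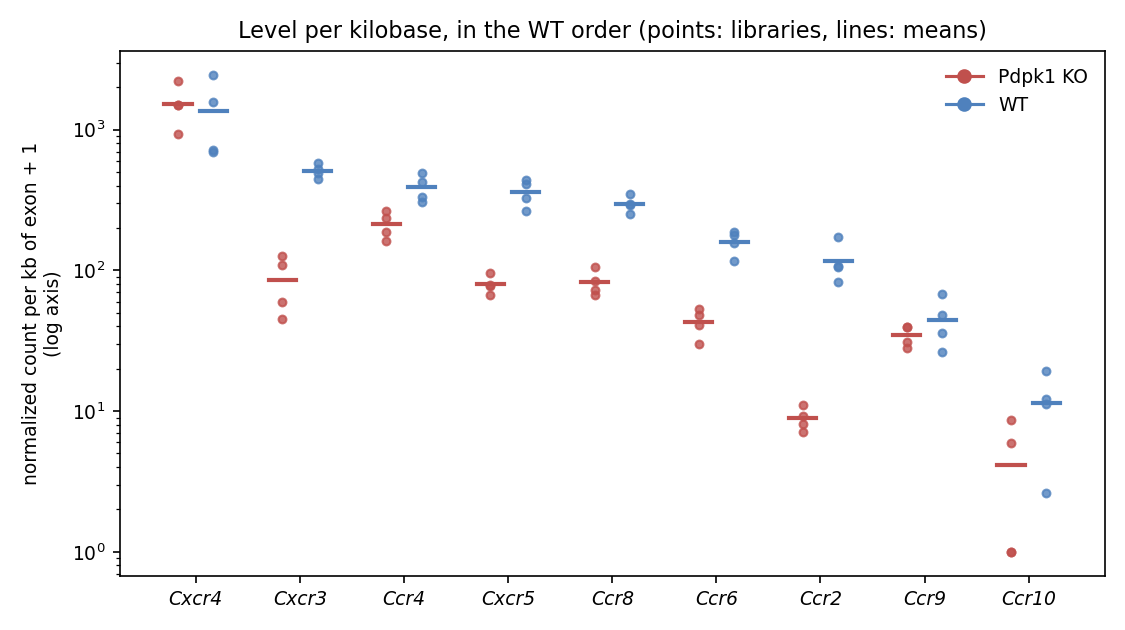
Normalized count per kilobase of exon, plus 1 (log axis), for the 9 receptors in the order of their WT means, with Pdpk1 KO libraries in red and WT in blue; points are libraries and lines are means. Cxcr4 is highest in both groups, and Ccr2 lies below Ccr9 in the Pdpk1 KO libraries and above it in WT.

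Ccr2 and Ccr9 belong to a cluster of receptor genes on chromosome 9, and some of its other receptor genes fell with Ccr2. From the start of Ccr9 to the end of Ccr2 (GRCm38 chromosome 9, 123678439 to 124113557) GENCODE places 15 genes, of which 12 were in the table and 8 were tested. Of the 8 tested, 3 were lower and 5 did not pass the threshold. Of the 50-base stretches of Ccr2 transcripts, 1.91% also occur in transcripts of other genes. Cxcr6, the CXCL16 receptor of tissue-resident T cells, was at 66.5 ± 42.3 normalized counts in the Pdpk1 KO libraries and 204 ± 19.8 in WT (SD, n = 4 each, log2 change -1.81, adjusted p = 0.00559). Ccr1, the receptor for CCL3 and CCL5, was at 0 in all 4 Pdpk1 KO libraries and at 37.2, 24.0, 30.4 and 23.7 in WT replicates 1 to 4, at least 9.60-fold lower when each library at 0 is set to 3 reads (adjusted p = 0.00238). Between Ccr1 and Ccr2, Ccr3, a receptor known from eosinophils, had 59.4 ± 42.4 normalized counts in Pdpk1 KO and 43.3 ± 20.6 in WT (SD, n = 4 each, adjusted p = 0.916). The genes Lztfl1 and Fyco1, which are no receptors, did not pass the test (adjusted p = 0.781 and 0.711).

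**Figure D4:**
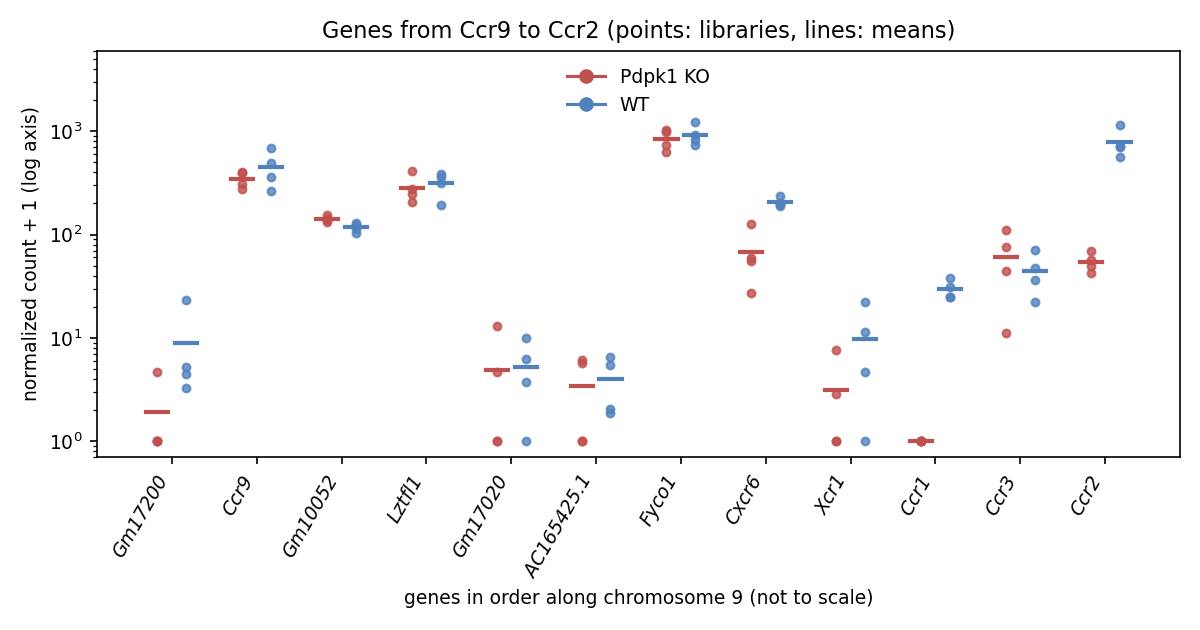
Normalized count plus 1 (log axis) of the 12 genes in the table from Ccr9 to Ccr2, in their order along chromosome 9 and not to scale, with Pdpk1 KO libraries in red and WT in blue; points are libraries and lines are means. Cxcr6, Ccr1 and Ccr2 lie lower in the Pdpk1 KO libraries, while the groups overlap for Ccr3, between Ccr1 and Ccr2.

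Over the rest of the family, 15 further chemokine receptors were listed, 10 were in the table and 6 tested, of which 3 fell, 1 rose and 2 missed the threshold. Their median log2 change was -1.18, the same with Ccr1 at its bound. Ccr1 and Cxcr6, described above, were among those that fell, and the 1 higher was Ccr7, the receptor for lymph node entry, at 12547 ± 983 normalized counts in the Pdpk1 KO libraries and 9339 ± 366 in WT (SD, n = 4 each, adjusted p = 0.00712). With macrophage markers in the fit Ccr7 was at 0.47 and past the threshold (limma adjusted p = 0.0338). Without the 3 libraries highest in macrophage markers, all of them Pdpk1 KO, Ccr7 was at 0.38. That setting leaves 1 Pdpk1 KO library. With macrophage markers in the fit the fitted log2 change of Ccr1 was -4.69, against -4.87 without them, and missed the threshold (adjusted p = 0.0534).

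Chemokines that bind the 9 receptors were mostly low or not analysed here. Of 16 listed, 8 were in the table and 4 tested, 2 of them lower, 0 higher and 2 past neither way. Ccl20, the ligand of CCR6, was at 0 in Pdpk1 KO replicates 1 to 3 and at 9.39 normalized counts in replicate 4, against 60.9, 46.9, 27.6 and 57.1 in WT replicates 1 to 4 (adjusted p = 0.00317). Cxcl10, a ligand of CXCR3, averaged 27.0 ± 10.9 normalized counts in the Pdpk1 KO libraries and 92.1 ± 28.3 in WT (SD, n = 4 each, log2 change -1.78, adjusted p = 0.0108). With macrophage markers in the fit both missed the threshold, Ccl20 at a fitted log2 change of -3.84 (-4.71 without them) and an adjusted p of 0.0935, and Cxcl10 at -1.24 and 0.232. The macrophage markers themselves differed between the groups, and the part of those cells in the ligand values was not tested.

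The signalling machinery behind the receptors had a median change near 0. Of 31 listed genes for G proteins, arrestins, receptor kinases, RGS proteins and the Rac and PI3K branches, 27 were tested, 4 fell, 2 rose and 21 missed the threshold, with a median log2 change of -0.07. RGS proteins shorten G protein signals. Rgs3 and Rgs16 fell, by 1.09 and 1.09 on the log2 scale (adjusted p = 2.12e-05 and 0.00129). Rgs1, whose product dampens responses to CXCL12, rose to 9104 ± 898 normalized counts in the Pdpk1 KO libraries, against 4966 ± 401 in WT (SD, n = 4 each, log2 change 0.87, adjusted p = 4.04e-05). Pik3r5, the regulatory subunit of the PI3K that G protein receptors activate, also rose, by a log2 change of 0.91 (adjusted p = 0.000432). With macrophage markers in the fit Pik3r5 was at 0.74 and past the threshold (limma adjusted p = 0.0201). Without the 3 libraries highest in those markers, which leaves 1 Pdpk1 KO library, Pik3r5 was at 0.58. Gnai2, for the main inhibitory G protein of T cells and named after its values were seen, stood at 17392 ± 1603 normalized counts in Pdpk1 KO and 20110.0 ± 1821 in WT (SD, n = 4 each, log2 change -0.21, adjusted p = 0.258).

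Of 16 other molecules of homing, all tested, 7 fell, 1 rose and 8 missed the threshold, with a median log2 change of -0.38. Itgae and Cd44, an integrin chain that binds epithelium and a receptor for hyaluronan, fell by 3.47 and 1.04 on the log2 scale. Gcnt1, an enzyme that builds selectin ligands, fell to 28.3 ± 19.98 normalized counts in the Pdpk1 KO libraries, against 188 ± 45.9 in WT (SD, n = 4 each, adjusted p = 0.000437).

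Among 11 transcription factors known to act on these receptor genes, 10 were tested, 4 fell, 1 rose and 5 missed the threshold, with a median log2 change of -0.42. Maf fell by 2.35 and Gata3, a GATA factor, by 0.49 on the log2 scale (adjusted p = 8.38e-07 and 0.0118). Klf2, which keeps T cells recirculating through lymphoid organs, rose by 0.60 (adjusted p = 0.00227). Tbx21, which encodes the T-box factor T-bet that acts on Cxcr3, is named after its values were seen. It averaged 56.8 ± 1.09 normalized counts in the Pdpk1 KO libraries and 137 ± 45.8 in WT (SD, n = 4 each, log2 change -1.20, adjusted p = 0.0144), and was at -0.99 without WT replicate 1 (adjusted p = 0.055). With macrophage markers in the fit Klf2 and Tbx21 were not past the threshold (0.39 and -0.95, limma adjusted p = 0.084 and 0.208). Gata3 was past it in that fit (-0.70, limma adjusted p = 0.00653). Without the 3 libraries highest in macrophage markers, which leaves 1 Pdpk1 KO library, Gata3 was at -0.39.

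**Figure D5:**
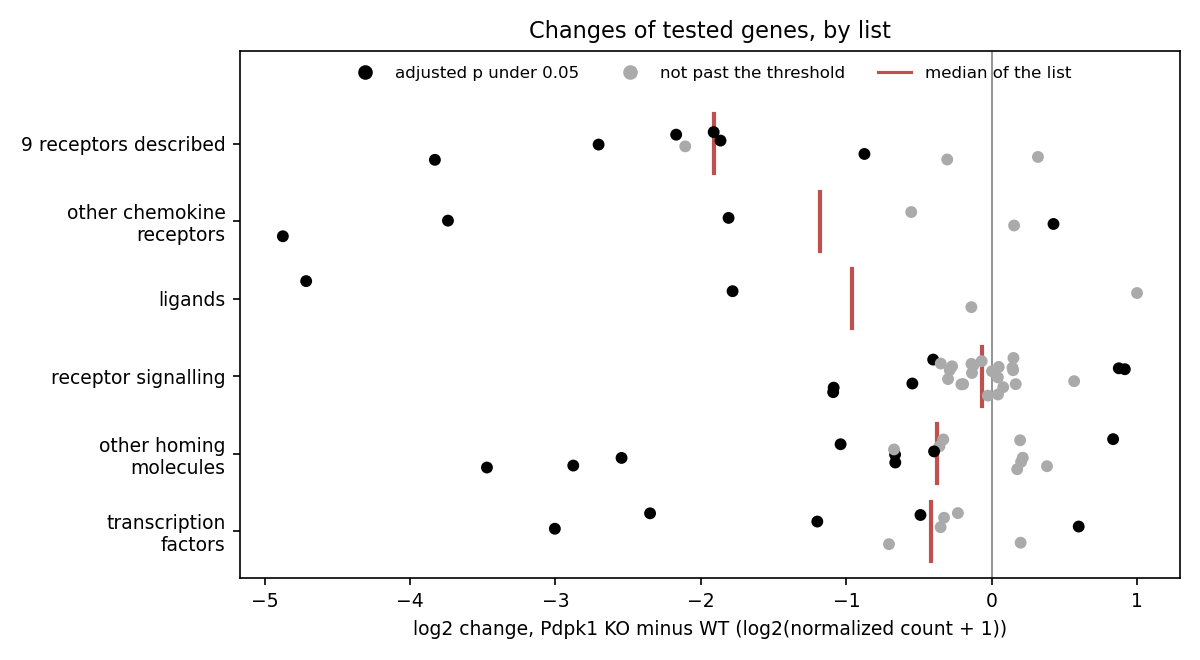
Log2 change of each tested gene (x axis, Pdpk1 KO minus WT, on the log2(normalized count + 1) scale) in the 9 receptors and 5 other lists; black points have an adjusted p under 0.05 and the red line is the median of a list, with points spread vertically at random for legibility. The median is -1.91 for the 9 receptors and -0.07 for receptor signalling.

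Genes other than the 9 were also ordered by how near their profiles lay to each receptor. Likeness was the root mean square difference over the 8 libraries between log2 values centred on each gene's mean. It was taken over genes with a mean normalized count of 50 or more. Genes named only by a Gm number, a clone (RP, AC or Rik names) or an Ensembl identifier were left out. Among the 3 nearest to Ccr2 were Il1rl1, the ST2 gene of tissue Treg, at 0.41 and Itgae at 0.50. The nearest to Cxcr3 were S100a6 at 0.27, Nkg7 at 0.30 and Ttc39c at 0.36. For Cxcr5 they were Hic1 at 0.18, Zcchc18 at 0.22 and Crmp1 at 0.22. Crmp1 also stood among the 3 nearest to Ccr6 and Ccr8, at 0.28 and 0.21, beside Ryk at 0.25 and Adam12 at 0.27 for Ccr6 and beside Bcl2a1d at 0.17 and Cyfip1 at 0.21 for Ccr8. For Ccr4 the nearest were Dock6, Lamc1 and Ahnak, at 0.14, 0.16 and 0.16. Those of Ccr9 were Apol9b, Phlda1 and Stard5, at 0.21, 0.21 and 0.22, and those of Cxcr4 were Padi3, Amigo1 and the heat shock protein gene Hsph1, at 0.28, 0.28 and 0.29. Ccr10 had no profile nearer than Tnfsf14 at 1.08.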

How the data were processed

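Polyadenylated RNA of sorted Treg was sequenced in 8 libraries, in 2 groups of 4 taken from the labels. The deposited table gives 1 signal value per gene and library, which the authors made by dividing gene read counts by a DESeq2 size factor, per the file's name. Per the submitters' processing notes, the build was GRCm38 and the tools were DESeq2 1.21, featureCounts (Subread 2.0.1), SAMtools 1.11, STAR 2.7.6a and Trimmomatic 0.39, without roles. Whether counting used strand, and which annotation, is not given in the sources; reads of overlapping genes on opposite strands cannot be told apart. In every library 100% of values came out whole when divided by the lowest value above 0 (tolerance 0.001), which recovers the reads, 22642749 ± 2711238 in the Pdpk1 KO libraries and 21201352 ± 2960115 in WT (SD, n = 4 each). The smallest total of a listed gene was 11 reads. A 0 allows up to 3 reads, or normalized counts of 2.56 to 3.38 by library, for counting error only, since PCR duplicates are unmarked. Replicates of a group all differed by more than counting noise (chi-square per degree of freedom of 14.5 or more).

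Symbols (19775 of 19826 genes), positions and exon lengths are from GENCODE M21. Genes with 10 or more normalized counts in at least 4 libraries were tested on log2(normalized count + 1) with limma 3.58.1 in R 4.3.3 (lmFit, eBayes with trend, two-sided, Benjamini-Hochberg over 13847 genes). Marker sums were compared by exact permutation. Alternatives were quantile normalization, edgeR 4.0.16 (quasi-likelihood) and DESeq2 1.42.0 on recovered reads, a pseudocount of 5, no filter, a replicate block, marker covariates and left-out libraries; the count and limma steps were tested on simulated data. The 9 receptors, the lists and the tests were chosen with earlier results of these data known. Of each list, the text names up to 4 called genes, lowest adjusted p first; some genes of the lists are not reported here by name. The alternatives for named genes other than the 9 were added after the data had been seen.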

Additional observations from a re-analysis of the deposited data

Results flagged for a closer look

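Of 42 sets of 4 libraries examined (the 9 receptors, Pdpk1, Foxp3 and 10 marker sums, each in both groups), 1 held a library far from the others, where chance gives about 1 in 20. The sum of neutrophil markers, in fact S100a9 alone, was 0 in the 4 Pdpk1 KO libraries and in WT replicates 1, 2 and 4, and 12.9 normalized counts in WT replicate 3, so that the gap to the nearest library was the whole range (ratio 1). The 4 Pdpk1 KO libraries had no spread in that sum, so their set could not hold such a library. In WT, 1 value above 0 among zeros gives a ratio of 1 whatever its size. No receptor had a library far from the others in either group.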

How the results depend on the processing

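Under all 17 alternatives 6 of the 9 receptors were lower and 0 higher, and Ccr2, Cxcr3, Cxcr5, Ccr6, Ccr8 and Ccr4 each kept direction and call, with an adjusted p of at most 0.0324 (Ccr4 with the macrophage covariate). Leaving out 1 library at a time, 495 to 724 genes were called lower and 389 to 588 higher, against 700 and 611 with all 8; 389 were higher without WT replicate 4 and 395 without Pdpk1 KO replicate 3. With macrophage markers in the fit 354 were lower and 272 higher, with B cell markers 440 and 317, and 354 and 77 once the 3 libraries with the highest macrophage sums were left out. That last setting leaves 1 Pdpk1 KO library, assumed to vary like WT. The labels do not say whether libraries with the same replicate number were paired or handled together. Correlations of same-numbered libraries were 0.217, 0.0921, 0.0481 and 0.113, and those of differently numbered libraries ran from -0.156 to 0.109. With a replicate block 1292 genes were lower and 1243 higher, with no receptor call changed.

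Cxcr4 turned to -0.66 under the macrophage covariate and to -0.34 when those 3 were left out, where Foxp3 turned to -0.053. Padi3 and Amigo1 turned to -0.049 and -0.14 under that covariate. Leaving out 1 library at a time, Foxp3 ranged from -0.0092 (without Pdpk1 KO replicate 1) to 0.17, and Hsph1 from -0.43 to 0.29 (without WT replicate 2; 0.16 without Pdpk1 KO replicate 4). None of these was past the threshold, and the cause was not tested. Over the alternatives, calls among receptor signalling genes ranged from 2 to 10 lower and 1 to 3 higher, among transcription factors from 3 to 8 lower and 0 to 1 higher, among ligands from 0 to 2 lower and among other homing molecules from 1 to 3 higher. Among the other chemokine receptors 0 to 1 were higher. Ccr10, with 92 reads, ranged from -3.01 to -0.62 over the alternatives and never passed the threshold.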
